A study of Mus musculus with 10 samples.

Results

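Collagens are the fibrous proteins of the extracellular matrix, and each is a triple helix of 3 α-chains, encoded by the same gene or by different genes. The collagen chain genes were examined by bulk RNA-seq in subcutaneous (s.c.) Panc02 tumors, which grow from a mouse pancreatic cancer line injected under the skin. The genes were chosen by name alone, as the rows whose mouse symbol reads Col, a number, the letter a and a number, which gave 43 of the 37417 genes counted. Col6a5 carries such a symbol too and was not analysed here. All tumors grew in wild type C57BL/6J hosts labelled as 12 weeks of age and were taken at day 16 after injection, with no treatment given. In 5 tumors (sgNT) the injected cells carried a nontargeting guide RNA, and in 5 (sgCda) they carried a guide against Cda, the gene of cytidine deaminase, which converts cytidine to uridine. The guides act in the injected cells and not in host cells. The study's methods describe cloning of the edited cells and reserve a mix of clones for survival experiments, and they do not name the form injected for these tumors. The tumors are labelled as separate samples, 1 library each, so p values measure the spread between these libraries.

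The chain is named by its collagen type and a chain number within that type, so Col1a1 and Col1a2 encode the α1 and α2 chains of type I collagen. Fibril-forming collagens (types I, III, V and XI among them) make the tensile fibers of connective tissue, while type IV forms the sheet of basement membranes and type VI a network of beaded filaments around cells. In pancreatic tumors most fibrillar collagen is known to be laid down by fibroblasts, and a form of type I collagen built from α1 chains only is known from some cancers. Inside the cell, hydroxylases, the chaperone HSP47 and prolyl isomerases prepare the helix, and outside it proteinases trim the ends and lysyl oxidases crosslink the fibers.

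The repeat behind the triple helix can be read in the coding sequences, and stretches of 4 chains whose levels the results turn on are printed to show it. Glycine, the only residue small enough for the center of the helix, is encoded by codons that start with GG, and these codons are in capitals. The stretches of Col1a1 (gene at chr11:94936224-94953042, plus strand), Col1a2 (chr6:4504814-4541544, plus strand) and Col5a2 (chr1:45374321-45503282, minus strand) are the first 7 units of their longest uninterrupted repeat, which starts at codons 168, 97 and 211. The stretch of Col4a1 (chr8:11198423-11312826, minus strand) starts at codon 154, close to the end of its longest repeat, and shows the break that follows. Positions and coding sequences are those of the GENCODE annotation of build GRCm38, and all stretches are exonic and protein coding.
Col1a1: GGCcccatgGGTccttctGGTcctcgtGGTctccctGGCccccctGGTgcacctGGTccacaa
Col1a2: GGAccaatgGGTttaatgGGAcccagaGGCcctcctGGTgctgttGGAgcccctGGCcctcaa
Col5a2: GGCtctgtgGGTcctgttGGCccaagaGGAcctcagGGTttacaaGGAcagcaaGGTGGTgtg
Col4a1: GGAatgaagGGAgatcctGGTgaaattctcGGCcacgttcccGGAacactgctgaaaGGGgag

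The longest unbroken repeat was 338 units in Col1a1 and 339 units in Col1a2 and Col5a2. It was 40 units in Col4a1, whose network-forming chain is interrupted many times, and 87 units in both Col6a1 and Col6a2, whose short helices are flanked by large globular domains. Codons of this kind made up from 9.07% of the coding sequence in Col6a3 to 31.2% in Col9a3.

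Col4a1 and Col4a2 lie head to head on chromosome 8, and their first exons overlap on opposite strands by 22 bases at chr8:11312805-11312826 (GRCm38). The shared stretch, read on the plus strand from the RefSeq promoter windows of GRCm38.p6, is printed because the levels of this pair are compared in the results.
Col4a1 and Col4a2 shared start: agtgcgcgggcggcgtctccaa

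Libraries held 28051907 to 39484964 counts assigned to genes. Cda itself ran from 10.1 to 14.7 CPM in sgNT tumors and from 7.47 to 12.5 in sgCda tumors, where CPM is counts per 1000000 of a library size scaled by the trimmed mean of M values (TMM), and the groups overlapped (adjusted p = 0.9996, edgeR's quasi-likelihood test). The paper checked the targeting in cultured cells by western blot and by RT-qPCR with Cda primers over the region that the guides target. Counts per gene do not single out that region. The paper also found Cda RNA in endothelial cells and fibroblasts of its mouse tumors, so these bulk counts do not measure targeting in the cancer cells alone. The tumors sgCda 3 and sgCda 4 stood at the opposite ends of the first principal component of all genes, with coordinates of 58.3 and −56.4, so results that rest on them are also given without them. The library of sgCda 4 was the shallowest, and it had the highest share of reads outside annotated genes (18.4%) and of mitochondrial counts (5.82%). The summed CPM of the skeletal muscle markers ran from 1.30 to 444.6 in sgNT tumors and from 1.30 to 1798 in sgCda tumors, with the highest value in sgCda 3. The 8 fibroblast markers summed to 1888 to 3339 CPM in sgNT and 1147 to 3197 CPM in sgCda tumors, and no fibroblast marker was at 0.

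Collagen chains took 0.746% ± 0.176 of the assigned counts in sgNT tumors and 0.725% ± 0.149 in sgCda tumors (mean ± SD, n = 5 each). Single tumors ran from 0.518% in sgNT 3 to 1.012% in sgNT 5, so the difference of −0.021 percentage points was smaller than the SD of either group. In a bulk tumor, fewer cells of a type and less RNA per cell cannot be told apart. The fibril-forming and beaded filament classes held most of the counts, and their balance differed between tumors. Fibril-forming chains made up 18.9% of collagen counts in sgCda 4 and 56.6% in sgCda 3, and beaded filament chains 44.5% and 17.2% in the same tumors. The 2 tumors at the extremes of this balance were both sgCda tumors, whereas sgNT tumors ran from 20.03% to 50.4% for the fibril-forming class.

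**Figure D1:**
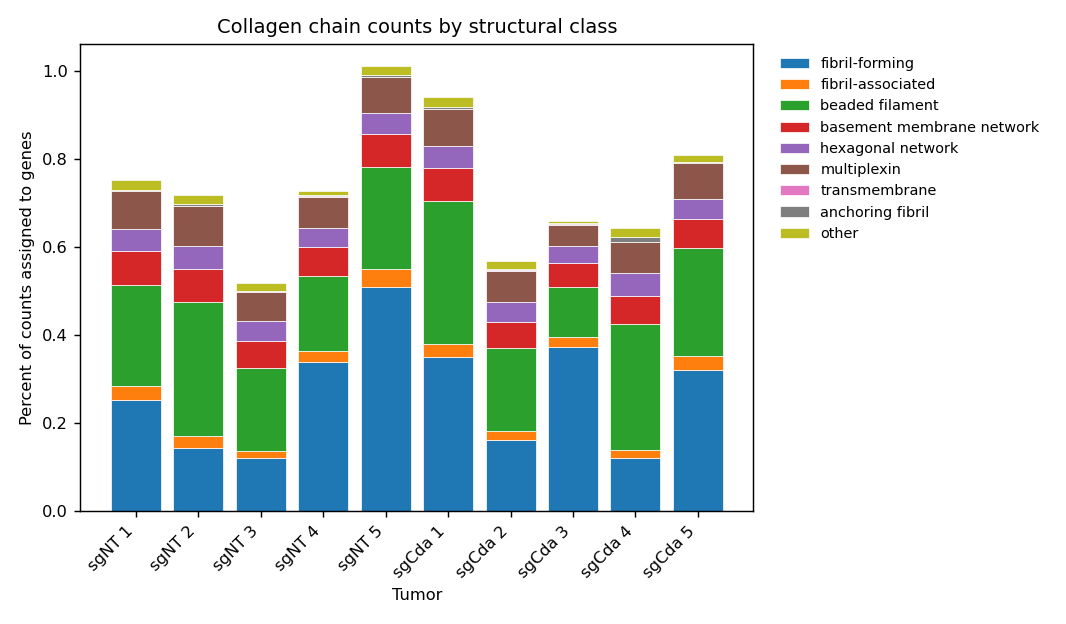
Stacked bars give, for each of the 10 tumors on the x axis, the counts of collagen chain genes as a percent of all counts assigned to genes (y axis, from 0), split by structural class. Total bar height ranges from 0.518% to 1.012%, and the fibril-forming part is shortest in sgNT 3 and sgCda 4.

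Per kilobase of transcript, which allows levels to be compared between genes, the type VI chains Col6a1 (228 ± 81.5 CPM per kb, mean ± SD over 10 tumors) and Col6a2 (202 ± 71.9) ranked highest. Col1a1 (175 ± 74.6), Col3a1 (130 ± 67.2), Col18a1 (127 ± 21.0) and Col1a2 (111 ± 77.7) came next. The ranges of Col6a1 and Col6a2 overlapped, although Col6a1 was above Col6a2 in all 10 tumors. The order depends on the length used. With the union of all exons as length, an alternative chosen after seeing the data, Col6a1 stayed first at 213 CPM per kb and Col1a1 (158) and Col18a1 (101) came next, before Col6a2 (95.9), Col3a1 (73.5) and, in place 8, Col1a2 (47.9). Col18a1 encodes the basement membrane collagen that releases endostatin. Col8a1, a chain of the hexagonal network of vessel walls and the cornea, stood at 91.6 ± 8.2, Col4a1 at 61.5 ± 7.10 and Col6a3 at 54.8 ± 9.24 CPM per kb. The type II and type IX genes Col2a1, Col9a1 and Col9a2, known from cartilage, had 15 counts or fewer in all 10 tumors together, while Col9a3 passed the filter at 0.161 to 0.675 CPM per kb. The cartilage and bone markers Acan, Ibsp, Matn1, Sp7 and Bglap were each at or below 0.17 CPM in every tumor, and Sox9, the remaining marker of that list, stood at 44.6 to 96.0 CPM.

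The levels of collagen chains varied widely from tumor to tumor. The SD of log2 CPM over the 10 tumors had a median of 0.554 among the 32 members that passed the filter on low counts, against 0.203 among the 15299 genes that passed it, and 29 of these 32 members lay above the median of all genes. The largest SDs belonged to Col11a1 (1.81), a minor fibril-forming chain, Col1a2 (1.76) and Col5a2 (1.495). Without sgCda 4, which was lowest for all of them, the SDs were 0.964, 1.07 and 0.921, the largest was that of Col24a1 (1.38, against 1.43 with all tumors), and the median was 0.411 among members against 0.177 among all genes. With all tumors the smallest SDs belonged to Col8a1 (0.136), Col4a2 (0.162) and Col4a1 (0.167).

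Col1a1 CPM was 969, 622, 505, 1306 and 1834 in sgNT 1 to 5 and 1232, 695, 1350, 530 and 1324 in sgCda 1 to 5. Col1a2 CPM was 515, 162, 199, 815 and 1264 in the sgNT tumors and 842, 312, 1049, 23.0 and 773 in the sgCda tumors. Both genes were highest in sgNT 5, and the groups overlapped. That tumor was the highest for 10 of the 32 members (31.2%), against 7.12% of all genes tested. In sgCda 4, Col1a2 was far below every other tumor while Col1a1 stayed inside the range of the others. The value of sgCda 4 rests on 648 Col1a2 counts, against 14955 counts of Col1a1 in the same library.

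The ratio between the 2 type I chains was therefore read within each tumor, where library scaling cancels. Col1a1 to Col1a2 counts per kb stood at 1.70, 3.46, 2.29, 1.44 and 1.31 in sgNT 1 to 5 and at 1.32, 2.01, 1.16, 20.8 and 1.55 in sgCda 1 to 5. The other 9 tumors thus lay between 1.16 and 3.46, and sgCda 4 lay outside that span. The level of this ratio depends on the lengths, since the union of all exons multiplies each value by 2.10, whereas the fold between tumors does not. Between the groups the log2 ratio differed by 0.39 (0.93 ± 0.57 in sgNT, 1.33 ± 1.73 in sgCda, n = 5 each; exact permutation p = 0.857, adjusted over 8 pairs 0.960), and without sgCda 4 the difference turned to −0.37 (exact p = 0.302).

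Col3a1, the type III chain that forms fibrils together with type I, reached 688, 360, 291, 907 and 1469 CPM in sgNT tumors and 1018, 389, 901, 391 and 801 CPM in sgCda tumors. It followed Col1a1 closely. Their ratio per kb, Col3a1 to Col1a1, stayed between 0.596 and 0.881 in the 10 tumors although Col1a1 itself spanned 3.63-fold. The ratio in sgCda 4 was 0.787, within the range of the other tumors.

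Type V collagen is a minor component that seeds type I fibrils and sets their diameter. Its chain Col5a2 stood at 56.3, 18.9, 26.6, 78.4 and 121 CPM in sgNT tumors and at 81.4, 31.8, 101, 3.76 and 65.1 CPM in sgCda tumors. As for Col1a2, sgCda 4 was the lowest tumor by a wide margin. Its partner Col5a1 ran only from 146 to 293 CPM over all 10 tumors, with 170 CPM in sgCda 4, and the third chain Col5a3 from 35.8 to 70.7 CPM, with 54.7 in sgCda 4. The ratio of Col5a1 to Col5a2 per kb was 2.89, 7.98, 4.73, 2.42 and 1.90 in sgNT tumors and 2.30, 3.63, 1.66, 35.4 and 2.49 in sgCda tumors. The ratio of Col5a3 to Col5a1 stayed between 0.281 and 0.444. Neither ratio differed between the groups beyond the spread (log2 differences of 0.26 and 0.02, exact permutation p = 0.841 and 0.881), and the first turned to −0.51 without sgCda 4.

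Col11a1, which can join type V chains in mixed trimers, was counted at 2.90, 0.663, 1.33, 2.23 and 3.44 CPM in sgNT tumors and at 1.46, 0.680, 5.12, 0 and 1.74 CPM in sgCda tumors. In sgCda 4 its count was 0, which allows a level of up to 0.107 CPM of assigned counts (3 counts, counting error only). Col11a2 was highest in that same tumor, at 3.76 CPM against 1.14 to 1.82 CPM in the other tumors.

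**Figure D2:**
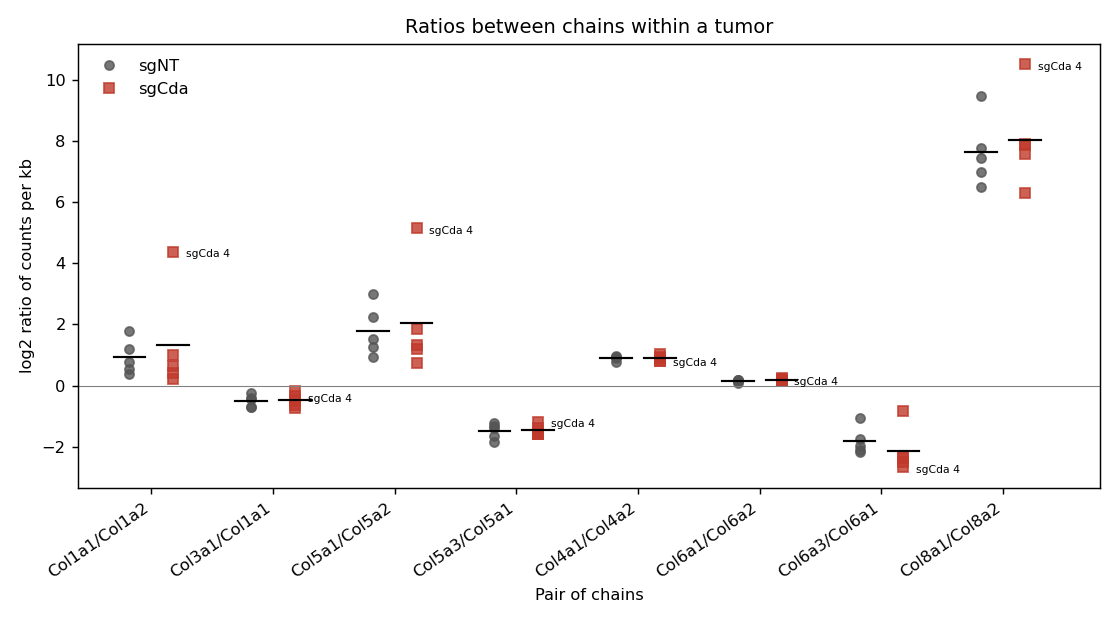
Each point is the log2 ratio of counts per kb of 2 chains in 1 tumor (y axis) for the 8 pairs on the x axis, with sgNT as circles, sgCda as squares, group means as lines and the tumor sgCda 4 named. That tumor lies above all others for Col1a1/Col1a2, Col5a1/Col5a2 and Col8a1/Col8a2, whereas Col4a1/Col4a2 and Col6a1/Col6a2 span no more than 1.198-fold.

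The tumors with little Col1a2 also had little of some other fibrillar chains, although Col11a2 and Col27a1 were at their highest in sgCda 4. The 4 lowest tumors for Col1a2 were sgCda 4, sgNT 2, sgNT 3 and sgCda 2, and the same 4 tumors were the lowest for 8 of the 32 members, Col1a2 included, namely Col1a1, Col1a2, Col3a1, Col5a1, Col5a2, Col11a1, Col14a1 and Col24a1. Over all 15299 genes tested, 200 genes (1.31%) had the same 4 lowest tumors. Col14a1 and Col24a1, named here after their values were seen, encode a fibril-associated collagen and a minor fibril-forming collagen. Col14a1 was at 13.3 to 23.8 CPM in these 4 tumors and at 36.9 to 60.6 CPM in the others. Since the 4 tumors were picked by Col1a2, and 2 of them were sgNT and 2 sgCda, they are a description of these libraries and not a group.

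Some genes that build or bind collagen had the same 4 lowest tumors, and those given here were named after their values were seen, except Itga11. Of 29 machinery genes tested there were 4, namely Lox and Loxl2, lysyl oxidases that crosslink fibers, Adamts2, which cuts the amino-terminal propeptide off procollagens, and P4ha3, a prolyl hydroxylase subunit. Lox CPM was 45.5, 18.5, 26.6, 49.8 and 72.1 in sgNT tumors and 62.1, 22.6, 62.6, 6.02 and 62.0 in sgCda tumors. Of 9 receptor genes tested, the collagen-binding integrin chain Itga11 and the collagen uptake receptor Mrc2 did so too, Mrc2 by a near tie, with 15.283 CPM in sgCda 2 and 15.284 CPM in sgCda 5. Itga11 stood at 0.14 CPM in sgCda 4 and between 0.73 and 5.73 CPM in the other tumors.

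Among markers of other cell types, 0 of 6 endothelial genes and 2 of 6 pericyte and smooth muscle genes had the same 4 lowest tumors, against 1.31% of all genes tested. The 2, named after their values were seen, were Rgs5 and Acta2, the smooth muscle actin of pericytes and myofibroblasts. Rgs5 was at 10.2 to 16.91 CPM in the 4 tumors, with sgCda 5 next at 16.93 CPM. Acta2 was at 18.2 CPM in sgCda 4 and 62.9 CPM in sgNT 5. Of the other pericyte and smooth muscle genes, Cnn1 was lowest in sgCda 1, Myh11 and Cspg4 in sgCda 5 and Mcam in sgCda 2. The sum of the 6 genes was 53.7 to 131 CPM in sgNT tumors and 51.0 to 96.8 CPM in sgCda tumors. This sum was lowest in the same 4 tumors, at 51.0 CPM in sgCda 4, 53.7 in sgNT 2, 57.3 in sgNT 3 and 66.2 in sgCda 2. The tumor sgCda 5 came next at 68.5 CPM. Of the 6 endothelial genes, 3 were lowest in sgCda 4 (50%, against 22.7% of all genes tested). Their sum was 74.2 CPM in sgCda 2, 76.4 in sgCda 4, 87.8 in sgCda 5, 88.4 in sgNT 2 and 93.1 in sgNT 3. In the other tumors this sum was 110.9 to 130.9 CPM. None of the 8 fibroblast markers had the same 4 lowest tumors as Col1a2. In sgCda 4 the matrix proteoglycan Dcn (2422 CPM) was at the top of its range and Pdgfra (155 CPM) lay inside the range of the others. Fap (1.382 CPM), Pdpn (8.50 CPM) and Thy1 (66.0 CPM) were lowest there, or 37.5% of the 8 markers, against 22.7% of all genes tested. Fap was a near tie, with 1.390 CPM in sgNT 2. The part of these markers, and of the shallower library of sgCda 4, in the levels of the fibrillar chains was not tested.

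**Figure D3:**
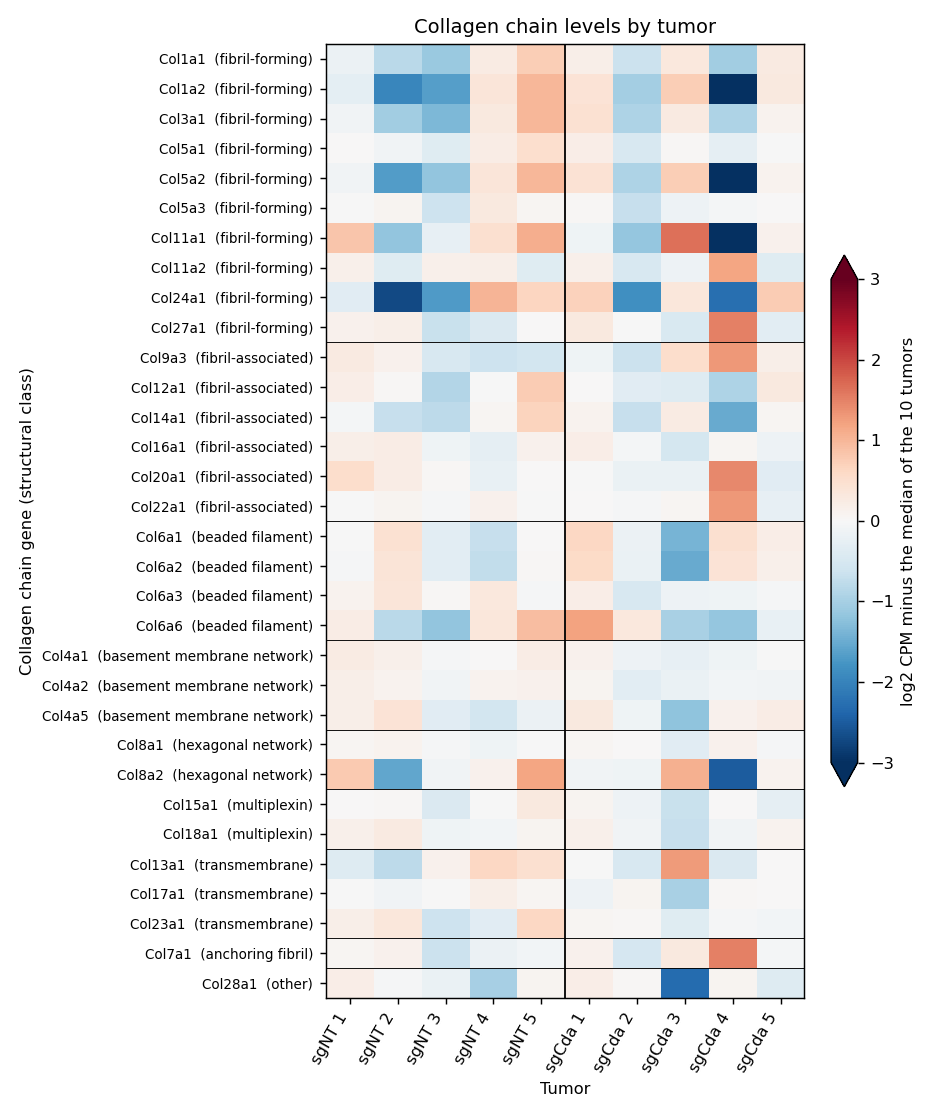
Rows are the 32 collagen chain genes that passed the filter, ordered by structural class, and columns the 10 tumors, with sgNT left and sgCda right of the line. Color gives log2 CPM minus the gene's median over the 10 tumors, so blue cells for Col1a2, Col5a2 and Col11a1 in sgCda 4 and for Col6a1, Col6a2 and Col28a1 in sgCda 3 mark the lowest tumors, and color ends at 3 log2 units.

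Type VI collagen, which anchors cells to the surrounding matrix, had other lowest tumors. Col6a1 stood at 922, 1265, 742, 571 and 922 CPM in sgNT tumors and at 1417, 812, 349, 1280 and 1057 CPM in sgCda tumors. Col6a2 stood at 785, 1062, 645, 482 and 835 CPM and at 1214, 708, 283, 1068 and 906 CPM in the same order. Both chains were lowest in sgCda 3, then in sgNT 4, and both were second highest in sgCda 4. Their ratio per kb was the most even of the 8 pairs and ran from 1.06 to 1.19 (log2 difference between the groups 0.03, exact permutation p = 0.365). The 2 genes are neighbours on chromosome 10 on the minus strand, with Col6a2 at chr10:76595762-76623630 and Col6a1 at chr10:76708792-76726168.

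Col6a3, the large α3 chain of type VI, lies apart on chromosome 1 and did not follow its partners in every tumor. It stood at 578, 696, 552, 677 and 526 CPM in sgNT tumors and at 620, 386, 484, 495 and 524 CPM in sgCda tumors. The ratio of Col6a3 to Col6a1 per kb was 0.563 in sgCda 3 and 0.481 in sgNT 4, against 0.157 to 0.302 in the other 8 tumors. The groups overlapped and the log2 ratio differed by −0.33 (−1.81 ± 0.45 in sgNT, −2.14 ± 0.74 in sgCda; exact permutation p = 0.413). Without sgCda 3 the difference was −0.66 (exact p = 0.016, adjusted over the 8 pairs 0.127), so this value rests on whether that tumor is counted.

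Col28a1, a collagen related to type VI in its domain make-up and known from Schwann cells of peripheral nerve, was named after its values were seen. It had 225, 192, 170, 98.1 and 207 CPM in sgNT tumors and 226, 198, 39.0, 207 and 149 CPM in sgCda tumors. As for Col6a1, sgCda 3 was lowest and sgNT 4 next. In sgCda 3, 10 of the 32 members were at their lowest, or 31.2%, against 22.6% of all genes tested, and the members included Col4a5, Col15a1, Col16a1 and Col18a1. The fibroblast markers Dcn (614 CPM, against 1240 to 2422 in the other tumors), Pdgfra, Pdgfrb, Lum and Dpt were also lowest in sgCda 3, whereas Thy1 (223 CPM), Fap (4.42 CPM), the leukocyte sum (1152 CPM) and the muscle sum were highest there. Whether these markers account for the low type VI levels was not tested.

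**Figure D4:**
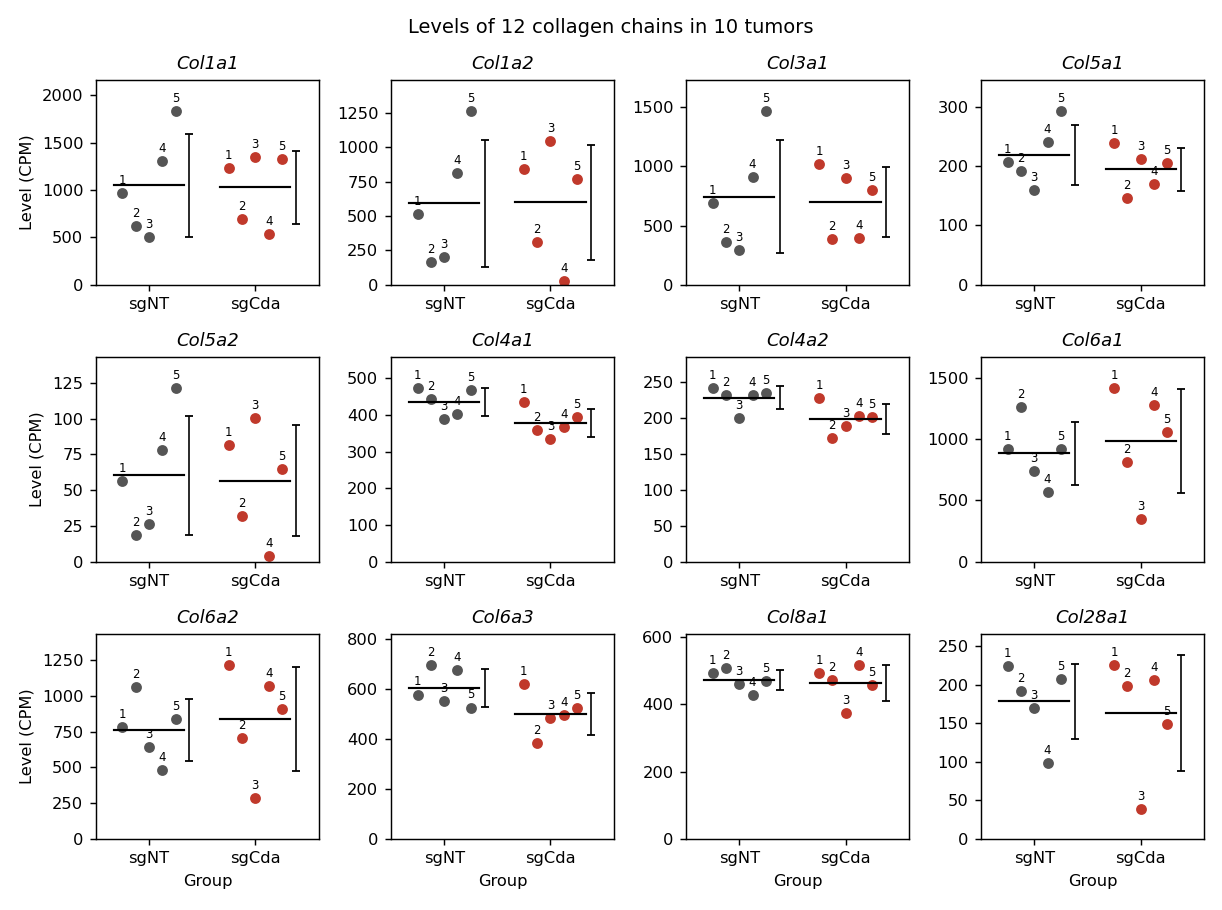
Points are the CPM (y axes, from 0) of 12 collagen chain genes in the 5 sgNT and 5 sgCda tumors, numbered by replicate, with the group mean as a line and the SD as a bar at its right. The 2 groups overlap for every gene, Col1a2 and Col5a2 are lowest in sgCda 4, and Col6a1, Col6a2 and Col28a1 are lowest in sgCda 3.

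The basement membrane chains were steady by comparison. Col4a1 stood at 474, 444, 388, 403 and 467 CPM in sgNT tumors and at 435, 359, 335, 367 and 394 CPM in sgCda tumors. Col4a2 stood at 241, 232, 200, 232 and 235 CPM and at 228, 172, 188, 203 and 201 CPM. For both genes sgNT 1 was the highest tumor, and the groups overlapped, with sgNT 3 low and sgCda 1 high in its group. Col4a1 to Col4a2 per kb ran from 1.70 to 2.03 (log2 difference between the groups −0.001, exact permutation p = 0.960). Of the other type IV genes, Col4a5 ran from 23.3 CPM in sgCda 3 to 72.0 CPM in sgNT 2, and Col4a3, Col4a4 and Col4a6, which form networks of kidney, lung or epidermis with Col4a5, did not pass the filter.

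The ratio of the 2 chains of type VIII was also highest in sgCda 4, as were the ratios of Col1a1 to Col1a2 and of Col5a1 to Col5a2. Col8a1 was the steadiest member, at 375 to 517 CPM. Col8a2 stood at 3.30, 0.600, 1.77, 2.07 and 4.40 CPM in sgNT tumors and at 1.75, 1.71, 4.00, 0.283 and 2.03 CPM in sgCda tumors, with sgCda 4 lowest and sgNT 2 next. The ratio of Col8a1 to Col8a2 per kb thus ran from 79.2 in sgCda 3 to 1456 in sgCda 4, the latter on 8 counts of Col8a2.

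While sgCda 4 was lowest for 6 members (18.75%, against 22.7% of all genes tested), it was highest for 7 others (21.9%, against 26.5%). Col7a1, the anchoring fibril collagen beneath the epidermis, stood at 34.8, 36.5, 21.3, 29.8 and 31.9 CPM in sgNT tumors and at 36.7, 23.6, 41.3, 95.4 and 32.2 CPM in sgCda tumors. Col27a1, a fibril-forming chain known from cartilage, reached 29.4 CPM in sgCda 4 against 6.51 to 12.7 CPM in the other tumors. Both genes were named after their values were seen. Col7a1 and Col27a1 had log2 fold changes of 0.57 and 0.51 with all tumors and of 0.12 and 0.02 without sgCda 4. The keratinocyte marker Krt5 was at 0.248 CPM in sgCda 4, below 1.947 CPM in sgNT 4 and above the 0 to 0.136 CPM of the other tumors. In sgCda 4, Krt14 and Krt1 were at 0.071 and 0.035 CPM, and Dsg3 was at 0, as in sgNT 4, sgCda 1 and sgCda 5. Krt10 stood at 5.17 CPM there, within its range of 3.27 to 13.98 CPM over the tumors.

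Collagen chains were then compared between sgCda and sgNT tumors to ask whether targeting Cda in the cancer cells changed them. By edgeR's quasi-likelihood test with Benjamini-Hochberg adjustment over 15299 genes, 0 of the 32 members passed an adjusted p of 0.05 (smallest adjusted p = 0.9996), and 0% of all genes tested did. At an unadjusted p under 0.05 there were 2 members, both lower in sgCda, or 6.25%, against 2.5% of all genes tested. DESeq2's Wald test and limma-voom also gave 0 members past the adjusted threshold, with 3 members each at the unadjusted one. The 2 members became 0 without sgNT 1, without sgNT 2 or without sgCda 3, and without sgCda 2 the 2 members past the unadjusted threshold were higher in sgCda. Members whose groups did not overlap numbered 0, against 0.601% of all genes. The direction was lower in sgCda for 19 members and higher for 13, with a median log2 fold change of −0.09, and over all genes 7205 were lower and 8094 higher with a median of 0.01.

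The 2 members were Col4a2 (log2 fold change −0.20, SE 0.08, 95% CI −0.38 to −0.02, unadjusted p = 0.0319 by edgeR, adjusted p = 0.9996) and Col4a1 (−0.20, SE 0.09, 95% CI −0.40 to −0.01, unadjusted p = 0.0404, adjusted p = 0.9996). Col4a2 averaged 228 ± 16.0 CPM in sgNT and 198 ± 20.5 CPM in sgCda, and Col4a1 435 ± 38.05 and 378 ± 38.3 CPM. The 2 genes share a start and a near constant ratio, so they are not separate observations. Without sgCda 3 and sgCda 4 the unadjusted p was 0.083 for Col4a2 and 0.171 for Col4a1. The endothelial markers, whose cells rest on basement membrane, summed to 88.4 to 131 CPM in sgNT and 74.2 to 121 CPM in sgCda tumors, and their part in the type IV levels was not tested. Col6a3 came next (log2 fold change −0.27, 95% CI −0.55 to 0.004).

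The intervals of the fibrillar chains were wide. The log2 fold change of Col1a1 was −0.03 (95% CI −0.84 to 0.78), that of Col3a1 −0.09 (−1.05 to 0.88), that of Col5a2 −0.09 (−1.62 to 1.43) and that of Col1a2 0.02 (−1.72 to 1.76). For Col1a2 the interval held large decreases and large increases alike. Intervals were narrower for Col5a1 (−0.17, −0.54 to 0.21), Col5a3 (−0.15, −0.52 to 0.23) and Col8a1 (−0.03, −0.23 to 0.17). Col6a1 and Col6a2 had log2 fold changes of 0.15 (−0.57 to 0.87) and 0.13 (−0.60 to 0.87), Col8a2 of −0.31 (−1.61 to 0.99) and Col11a1 of −0.23 (−2.02 to 1.57), the last a fitted value that depends on how the 0 count of sgCda 4 is treated.

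**Figure D5:**
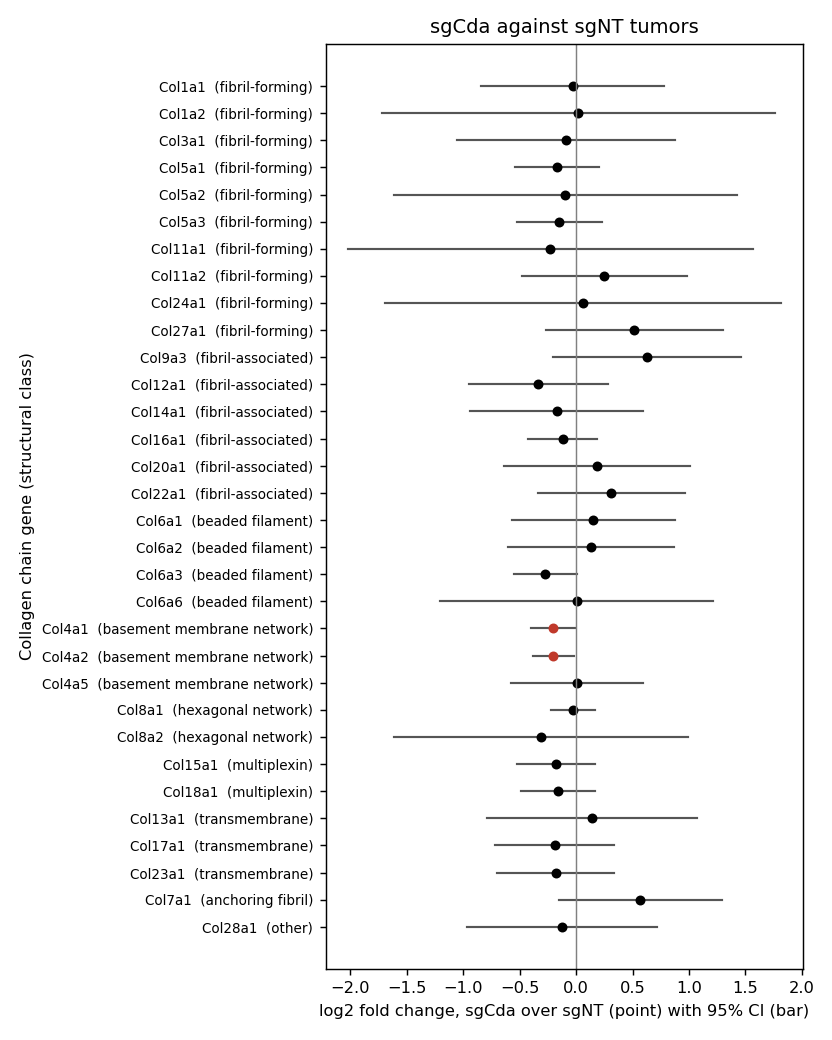
Points are the log2 fold changes of the 32 tested collagen chain genes, sgCda over sgNT (x axis), and bars their 95% confidence intervals, with the genes on the y axis by structural class. Only the bars of Col4a1 and Col4a2 (red points, unadjusted p of 0.0404 and 0.0319) stay on the negative side of 0, and bars are widest for Col1a2, Col5a2, Col11a1 and Col24a1.

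The genes that process collagen or bind it were compared in the same fit. Over all 15299 genes tested, 7205 were lower and 8094 higher in sgCda with a median log2 fold change of 0.01, and 0 passed the adjusted threshold. Of 31 machinery genes 29 were tested, 21 lower and 8 higher in sgCda with a median log2 fold change of −0.05, and 0 passed that threshold. Those with the smallest p by edgeR's quasi-likelihood test were Pcolce, an enhancer of the carboxy-terminal procollagen proteinase (−0.15, unadjusted p = 0.0463), the lysyl oxidase Loxl4 (−0.30, unadjusted p = 0.0645) and the lysyl hydroxylase Plod3 (−0.13, unadjusted p = 0.111), each with an adjusted p of 0.9996 by edgeR. Pcolce stood at 281, 302, 283, 308 and 324 CPM in sgNT tumors and at 280, 273, 243, 275 and 284 CPM in sgCda tumors, with overlap from sgNT 1, sgNT 3 and sgCda 5. Serpinh1, which encodes HSP47, ran from 270 to 394 CPM.

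Of 10 collagen receptor genes 9 were tested, 7 lower and 2 higher in sgCda, against 7205 lower and 8094 higher over all genes. Of all genes tested 0% passed the adjusted and 2.5% the unadjusted threshold, and 0 of these 9 receptor genes passed either. By edgeR's quasi-likelihood test the smallest p values belonged to the integrin chain Itga10 (log2 fold change 0.50, unadjusted p = 0.141), the discoidin domain receptor Ddr1 (−0.18, unadjusted p = 0.169) and Itga11 (−0.45, unadjusted p = 0.514), each with an adjusted p of 0.9996 by edgeR. Ddr2, the discoidin domain receptor of mesenchymal cells, ran from 199 CPM in sgCda 3 to 357 CPM in sgNT 2.

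The 11 members that did not pass the filter had few counts over all 10 tumors. Their totals were 101 for Col4a4, 99 for Col6a4, 82 for Col4a3, 65 for Col26a1, 39 for Col25a1, 33 for Col10a1, 15 for Col2a1, 13 for Col4a6 and 10 for Col19a1, and Col9a1 and Col9a2 had fewer still. With the filter set to 1 count in any tumor, the smallest p among them was that of Col10a1 (log2 fold change 1.09, unadjusted p = 0.0807, adjusted p = 0.862 by edgeR).

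Some members share exonic bases with other genes, which the counting can leave out or assign uncertainly. On the same strand these were Col3a1, Col7a1 and Col20a1, and 10 members overlapped a gene on the opposite strand. Col3a1 shared 141 bases of its exons in this way.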

How the data were processed

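The authors extracted RNA from whole tumors with TRIzol, made stranded poly(A) libraries, read the start of each fragment on an Illumina HiSeq, aligned the reads to mm10 with TopHat and Bowtie and counted them per gene with HTSeq. The submitters' processing notes list FastQC 0.11.5, Bowtie2, HTSeq 07.2 and mm10. The strand setting and annotation release are not given in the sources used here. The authors deposited raw counts, whole numbers per Ensembl gene with no normalization, in 1 table of 10 tumors. Reads that overlap more than 1 gene or align to several places are left out by HTSeq, which lowers counts of overlapping genes. Its 5 summary lines were set aside, and reads outside genes were 10.3% to 18.4% of uniquely aligned reads.

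Symbols were found for 32608 of the 37417 identifiers. The titles of the samples gave group and replicate. Genes were filtered with filterByExpr (minimum count 10, minimum total 15), scaled with TMM factors and compared by edgeR's quasi-likelihood test (edgeR 4.0.16, R 4.3.3) over all 10 tumors with no covariate, two-sided, with adjustment over 15299 genes. Levels are TMM-scaled CPM, log2 CPM uses a prior count of 2, and levels per kb use the length of the transcript with the longest coding sequence (GENCODE, GRCm38). An SE is the size of the log2 fold change over the square root of its F. Ratios of chains used counts plus 0.5 per kb and a two-sided exact permutation test over 252 assignments (smallest p 0.00794), adjusted over 8 pairs. Promoter windows were found for 34 of the 43 genes. No 2 libraries of a group agreed within sampling noise (chi-square per degree of freedom of 15.2 or more).

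The members, the 8 pairs, the machinery, receptor and marker lists and the alternatives were chosen with earlier results of these data known. The genes named were the chains of the abundant trimers and of the 8 pairs, members with an unadjusted p under 0.05, members whose groups do not overlap, the 3 with the largest and smallest SD, members not tested, and up to 3 genes per other list with the smallest p. Others, such as Col4a5, Col9a3, Col11a2, Col15a1, Col16a1, Col18a1, Serpinh1 and Ddr2, were named after their values were seen. Marker sums also covered adipocytes (18.5 to 384 CPM), keratinocytes (3.44 to 18.8 CPM), cartilage and bone (44.8 to 96.2 CPM, nearly all Sox9), epithelial cancer cells (566 to 1015 CPM, mostly Krt8 and Krt18, with Epcam at 0.91 to 3.43 CPM) and leukocytes (627 to 1152 CPM). Alternatives were DESeq2 size factors and Wald test (DESeq2 1.42.0), limma-voom (limma 3.58.1), other filters and scalings, a replicate block, a muscle covariate and leaving out tumors.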

Additional observations from a re-analysis of the deposited data

Results flagged for a closer look

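In 94 groups of 5 tumors (log2 CPM of the 32 tested members and of 6 named machinery and receptor genes, 8 log2 ratios and the collagen share, each in both groups) 13 values stood apart from the rest of their group by the gap between neighbouring values. Chance places about 1 in 20 groups there, or 4.7 of 94, and genes measured in the same tumors are not independent. Of the 13 values, 6 came from sgCda 3 and 4 from sgCda 4.

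In sgCda 4 the log2 ratio of Col1a1/Col1a2 was 4.38, against 0.22 to 1.007 in the other sgCda tumors. Col5a1/Col5a2 was 5.15 there, against 0.73 to 1.86. Log2 CPM was 1.30 for Col20a1, against −0.46 to −0.14, and 2.06 for Col22a1, against 0.51 to 0.82. This tumor had the shallowest library and the highest mitochondrial share (5.82%), and their part in these values was not tested.

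In sgCda 3 the log2 CPM of Col28a1 was 5.29, against 7.22 to 7.82 in the other sgCda tumors. That of Col4a5 was 4.54, against 5.63 to 6.06, and that of Col17a1 −1.34, against −0.51 to −0.28. Col13a1 was higher there, at 0.65 against −1.09 to −0.60. Pcolce stood at 7.92, against 8.09 to 8.15, and the log2 ratio of Col6a3/Col6a1 at −0.83, against −2.67 to −2.32. The muscle markers were highest in the same tumor (1798 CPM), and their part in these values was not tested.

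Smaller departures were Col5a3 in sgCda 2 (log2 CPM 5.16, others 5.69 to 5.87), Col4a2 in sgNT 3 (7.64, others 7.86 to 7.91) and the log2 ratio Col4a1/Col4a2 in sgNT 4 (0.76, others 0.90 to 0.96).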

How the results depend on the processing

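The counts of 0 collagen, machinery and receptor genes past the adjusted threshold held under all 20 alternatives of each. The median collagen log2 fold change of −0.09 ran from −0.20 to 0.085 as single tumors were left out, and the group difference in the collagen share of counts from −0.078 to 0.045 percentage points. No ratio passed an adjusted p of 0.05 under any alternative. Their log2 differences ran, as single tumors were left out, from −0.37 to 0.67 for Col1a1/Col1a2, −0.061 to 0.080 for Col3a1/Col1a1, −0.51 to 0.59 for Col5a1/Col5a2, −0.071 to 0.086 for Col5a3/Col5a1, −0.035 to 0.023 for Col4a1/Col4a2, 0.0090 to 0.037 for Col6a1/Col6a2, −0.66 to −0.14 for Col6a3/Col6a1 and −0.22 to 0.85 for Col8a1/Col8a2. As differences of group medians, the sign turned for Col1a1/Col1a2 (−0.13), Col3a1/Col1a1 (−0.058), Col5a1/Col5a2 (−0.21), Col5a3/Col5a1 (−0.18) and Col6a1/Col6a2 (−0.0091). Without sgCda 3 and 4 together it turned for Col1a1/Col1a2 (−0.25), Col3a1/Col1a1 (−0.028), Col5a1/Col5a2 (−0.33), Col5a3/Col5a1 (−0.035) and Col4a1/Col4a2 (0.056). The cause was not tested.

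The sign of the log2 fold change also turned for Col1a1 by limma-voom (0.034), with the replicate block (0.029) and without sgCda 3 and 4 (0.049), for Col1a2 by limma-voom (−0.38) and with the muscle covariate (−0.10), for Col3a1 by limma-voom (0.050) and with the block (0.033), and for Col8a1 with the covariate (0.0100) and without sgCda 3 and 4 (0.0062). Leave-one-out ranges that crossed 0 were −0.20 to 0.27 for Col1a1, −0.28 to 0.50 for Col1a2, −0.29 to 0.32 for Col3a1, −0.41 to 0.33 for Col5a2, −0.016 to 0.37 for Col6a1, −0.040 to 0.35 for Col6a2, −0.070 to 0.039 for Col8a1, −0.75 to 0.020 for Col8a2, −1.12 to 0.093 for Col11a1 and −0.77 to 0.18 for Itga11. Col4a1 and Col4a2 were lower in all 20 alternatives.

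Replicate numbers recur in both groups, but same-numbered tumors came from different mice and deviated together only for some numbers (correlations of −0.03, −0.02, 0.33, −0.43 and 0.34). These few correlations cannot decide whether the numbers mark a shared batch, so the main test left the tumors unpaired and the block was an alternative. With the replicate block, 2 collagen genes again had an unadjusted p under 0.05 and the number past the adjusted threshold was 0. At an unadjusted p under 0.05 the number of collagen genes ranged from 0 (muscle covariate and several omissions) to 3 (DESeq2's Wald test and limma-voom among them). Col8a2, Col11a1 and Itga11 had no value under the filter of 10 counts in every tumor. Depth limits the chains with few counts, such as Col8a2 and Col11a1.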
